A study of Mus musculus with 8 samples.

Results

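The comparison set passage 2 mouse mammary tumours in which RANK-Fc had been withdrawn (labelled FC_CT or Fc_CT, animals c608, c603 and c609) against passage 1 tumours under RANK-Fc (labelled FC or Fc, animals c558, c567 and c559). It used 6 of the 16 tumours of the series, 3 against 3, chosen by their labels alone. All tumours were pieces of MMTV-PyMT mammary tumours, in which the MMTV promoter drives the polyoma middle T oncogene in mammary epithelium, grown orthotopically in WT FVB mice. RANK-Fc, a decoy receptor for RANK ligand, was given intraperitoneally at 10 mg/kg 3 times per week; the labels call the earlier treatment neoadjuvant, and that a code such as Fc_CT means RANK-Fc in passage 1 and none in passage 2 is a reading of the codes. Other groups served for setting values side by side: RANK-Fc in both passages (continued, 3 tumours), RANK-Fc in passage 2 alone (current only, 3), passage 2 control (CT_CT, 2) and passage 1 control (CT, 2). Each tumour carries its own animal number, and the passage 1 tumour that gave rise to each passage 2 tumour is not stated, so p-values measure the spread between these tumours only. Withdrawing RANK-Fc and passing the tumour on happened together, so within this comparison they cannot be told apart.

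RANK, encoded by Tnfrsf11a, is the receptor through which RANK ligand, encoded by Tnfsf11, activates NF-kB signalling. In the mammary gland progesterone induces RANK ligand in hormone-sensing luminal cells, and the ligand acts on neighbouring cells to drive proliferation and the expansion of progenitors. RANK-Fc, like the natural decoy osteoprotegerin (Tnfrsf11b), binds the ligand and keeps it from the receptor.

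Each tumour was measured in 1 colour of a 2-colour Agilent array, and levels are normalised log2 intensities. On that scale a difference of 1 is a doubling, and levels of different genes cannot be compared because each probe has its own brightness. Between 47.5% and 56.5% of the spots of a channel were well above background. Differences come from limma fitted to all 16 tumours with a dye term, so they can differ a little from the difference of the printed means. A gene passed at a Benjamini-Hochberg adjusted p under 0.05 over 14131 genes. The epithelial markers Krt8, Krt18, Krt19, Epcam and Cdh1 were well above background in all 16 tumours. Krt18, a luminal keratin, was at 16.24, 16.07 and 15.98 in the withdrawn tumours, against 15.99, 16.22 and 16.24 in the passage 1 RANK-Fc tumours. Withdrawn replicate 1 stood apart in skeletal muscle markers and passage 1 RANK-Fc replicate 1 in adipocyte markers. In bulk tumour RNA, fewer cells of a type and less RNA per cell cannot be told apart.

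Among the genes that fell most after withdrawal were those of secreted proteins of glandular epithelium: prolactin-induced protein, secretoglobins and glandular kallikreins. Among genes that passed, the largest rises were those of the membrane mucin Muc4 and of the stefins Stfa1 and Cstdc5, which inhibit cysteine proteases. Smaller rises included the Wnt target Axin2 and the R-spondin receptor Lgr6. In all, 65 of 14131 genes passed (0.46%), 24 higher (0.17%) and 41 lower (0.29%). Of the 65 genes, 42 differed by 1 or more on the log2 scale. The 3 withdrawn tumours did not overlap the 3 passage 1 RANK-Fc tumours for any of the 65 genes; over all genes tested such a separation was seen for 8.08% higher and 10% lower. An unadjusted p under 0.05 was reached by 1515 genes, 4.31% of all genes higher and 6.41% lower. A positive difference, of any size, was seen for 46.7% of all genes tested. Leaving out withdrawn replicate 2 left 4 genes passing, all lower, leaving out withdrawn replicate 1 left 13 higher and 8 lower, and leaving out any single other tumour of the 6 left 14 to 60; 15 of the 65 genes passed in none of these fits.

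Because several genes that fell most have a secretory role and lie in clusters of related copies, promoters of 4 of them are shown here, as 300 bases around the annotated start, most of them upstream, from RefSeq on GRCm38.p6. The Pip promoter at chr6:41847299-41847598 (+) is printed with matches to the STAT site TTCNNNGAA in capitals. This motif, read on both strands, was present in 8.3% of 32851 mouse promoters of the same length.
Pip: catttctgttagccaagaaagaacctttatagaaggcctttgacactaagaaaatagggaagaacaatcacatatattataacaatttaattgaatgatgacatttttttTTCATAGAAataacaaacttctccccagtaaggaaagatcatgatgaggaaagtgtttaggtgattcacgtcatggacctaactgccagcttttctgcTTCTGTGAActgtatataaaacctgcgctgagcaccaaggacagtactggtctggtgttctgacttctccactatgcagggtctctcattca
The secretoglobin promoters, Scgb2b2 at chr7:31302519-31302818 (+), Scgb2b15 at chr7:32829604-32829903 (-) and Scgb2b27 at chr7:34013893-34014192 (-), are printed with matches to the TATA box TATAAA on either strand in capitals.
Scgb2b2: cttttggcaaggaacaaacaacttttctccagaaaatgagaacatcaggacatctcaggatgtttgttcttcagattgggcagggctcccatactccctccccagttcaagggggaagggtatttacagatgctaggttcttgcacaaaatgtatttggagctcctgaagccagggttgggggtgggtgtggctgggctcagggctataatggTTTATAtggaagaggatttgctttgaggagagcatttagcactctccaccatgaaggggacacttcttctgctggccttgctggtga
Scgb2b15: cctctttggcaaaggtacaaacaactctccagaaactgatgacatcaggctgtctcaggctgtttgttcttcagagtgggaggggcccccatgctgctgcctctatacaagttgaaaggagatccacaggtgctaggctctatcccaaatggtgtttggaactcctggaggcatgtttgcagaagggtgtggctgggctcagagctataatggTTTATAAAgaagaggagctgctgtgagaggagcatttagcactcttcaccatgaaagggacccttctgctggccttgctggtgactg
Scgb2b27: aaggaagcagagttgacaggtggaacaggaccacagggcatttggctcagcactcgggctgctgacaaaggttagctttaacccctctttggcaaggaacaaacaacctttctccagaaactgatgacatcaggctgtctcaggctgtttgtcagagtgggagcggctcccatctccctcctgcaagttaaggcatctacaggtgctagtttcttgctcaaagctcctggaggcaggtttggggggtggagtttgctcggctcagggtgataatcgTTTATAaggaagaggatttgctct
The Pip window held 2 STAT matches, at bases 111 and 209 from the upstream end. All 3 secretoglobin windows held a TATA match, which 13.6% of all promoters did; it lay on the minus strand relative to the gene in each and, in Scgb2b15, overlapped a plus-strand match. Of the promoters of genes that fell, 40 windows of 34 genes, 7 held the TATA box (17.5%) and 1 the STAT site (2.5%). Of the promoters of genes that rose, 22 windows of 19 genes, 2 held the TATA box (9.09%) and 4 the STAT site (18.2%). Motifs and windows were chosen after the values were seen, and a match is a description of letters only.

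Pip, prolactin-induced protein, a secreted glycoprotein of mammary, salivary and lacrimal epithelium, fell most. Its level was 9.77, 10.01 and 9.10 in the withdrawn tumours, against 13.06, 14.73 and 13.74 in the passage 1 RANK-Fc tumours. Every withdrawn tumour lay more than 3 units below every passage 1 RANK-Fc tumour. The fitted difference was -3.94 ± 0.38 (SE), a 15.3-fold lower level, with an adjusted p of 0.00113 in limma. Pip passed whichever of the 6 tumours was left out.

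The secretoglobins are small secreted proteins, and the Scgb2b and Scgb1b genes encode subunits of the mouse androgen-binding protein family. Scgb2b2 was at 10.88, 13.32 and 12.53 in the withdrawn tumours, against 14.26, 15.90 and 15.33 in the passage 1 RANK-Fc tumours. Scgb2b27 was at 10.27, 12.55 and 11.97 in the withdrawn tumours, against 13.36, 14.93 and 14.43 in the passage 1 RANK-Fc tumours. In both genes withdrawn replicate 1 was the lowest, and both groups spread over more than 1 unit. The differences were -2.70 ± 0.51 for Scgb2b2 (adjusted p = 0.0424 in limma) and -2.43 ± 0.46 for Scgb2b27 (adjusted p = 0.0407). Scgb2b15 fell by 1.89 on the log2 scale, with a mean of 9.12 ± 0.64 in withdrawn tumours and 11.1 ± 0.64 in passage 1 RANK-Fc tumours (SD, n = 3 each). A second probe of Scgb2b27 gave -1.86. Scgb2b2 and Scgb2b27 each passed in 1 of the 6 fits without 1 tumour, and Scgb2b15 in 2. Of the list of secretoglobins and salivary-type proteins, 14 of 27 members were tested, and 3 passed lower (Pip, Scgb2b27 and Scgb2b2) and none higher. The list median was -2.28, against -0.01 over all genes. Without the filter on dim probes the list median was -0.41. Of the 14 members, 2 had positive differences. At an unadjusted p under 0.05 lay 10 lower members and 1 higher, against 6.41% lower and 4.31% higher of all genes. Scgb2b20 (-2.65, adjusted p = 0.0512) and Scgb1b27 (-3.04, adjusted p = 0.0598) did not pass. These genes are near-identical copies, so a probe may read more than 1 of them.

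The glandular kallikreins are secreted serine proteases of the Klk1 cluster on chromosome 7, a family singled out after the values were seen. All 11 tested Klk1b genes had lower levels in withdrawn tumours with no overlap between groups, which held for 10% of all genes tested. Their differences ran from -2.11 to -0.67. Of these genes 6 passed (Klk1b8, Klk1b11, Klk1b16, Klk1b22, Klk1b26 and Klk1b27), while 0.29% of all genes passed lower. The array held 13 Klk1b genes, of which Klk1b1 and Klk1b9 were too dim to be tested. Klk1b26 was at 7.77, 8.49 and 7.25 in the withdrawn tumours, against 10.38, 9.90 and 9.63 in the passage 1 RANK-Fc tumours. Its difference was -2.11 ± 0.40 (adjusted p = 0.0407 in limma), and its other probe gave -1.63. Klk1b27 was at 6.52, 6.66 and 6.43 in the withdrawn tumours, against 9.41, 7.94 and 8.06 in the passage 1 RANK-Fc tumours, with passage 1 RANK-Fc replicate 1 the highest. Klk1b16 was well above background in 1 of 3 withdrawn tumours and in all 3 passage 1 RANK-Fc tumours. Klk1b8, Klk1b11 and Klk1b26 passed in none of the 6 fits without 1 tumour, Klk1b16 and Klk1b27 in 1, and Klk1b22 in 2. Klk1 itself differed by -0.51 ± 0.26 and its groups overlapped. The Klk1b copies are near-identical too, so these are not 11 independent measurements. Of the 65 genes that passed, 16 lie on chromosome 7 (24.6%), against 8.1% of all genes tested. These 16 include the 6 Klk1b genes and the Scgb2b genes that passed, so related copies are counted more than once.

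Secretory proteins of salivary acinar cells, also looked at after the values were seen, lay lower as well, but none passed. All 7 tested members had negative differences, while 46.7% of all genes tested had positive ones. Dcpp1, a demilune cell protein, was at 9.39, 9.87 and 12.36 in withdrawn tumours, against 11.88, 16.06 and 12.59 in passage 1 RANK-Fc tumours, and the groups overlapped (-2.90 ± 1.26, adjusted p = 0.437 in limma). Bpifa2, the parotid secretory protein, was well above background in 0 of 3 withdrawn tumours and 2 of 3 passage 1 RANK-Fc tumours, and was not tested. Amy1, salivary amylase, was at 6.79, 6.63 and 6.89 in withdrawn tumours, against 7.50, 7.33 and 6.93 in passage 1 RANK-Fc tumours. The part of salivary tissue in the kallikrein and secretoglobin differences was not tested. Among major urinary proteins, small secreted pheromone carriers, 10 of 10 tested genes had negative differences and Mup6 passed. For the other 9 the groups overlapped, and passage 1 RANK-Fc replicate 2 was the highest of the 6 tumours. Mup4 was at 11.17, 9.19 and 9.67 in withdrawn tumours, against 9.64, 13.92 and 11.04 in passage 1 RANK-Fc tumours. Mup6 was not well above background in any withdrawn tumour and was at 8.0, 7.30 and 7.24 in passage 1 RANK-Fc tumours, at least 2.48-fold lower after withdrawal, with an adjusted p of 0.0174 in limma. That bound sets the passage 1 mean against the lowest signal well above background.

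**Figure D1:**
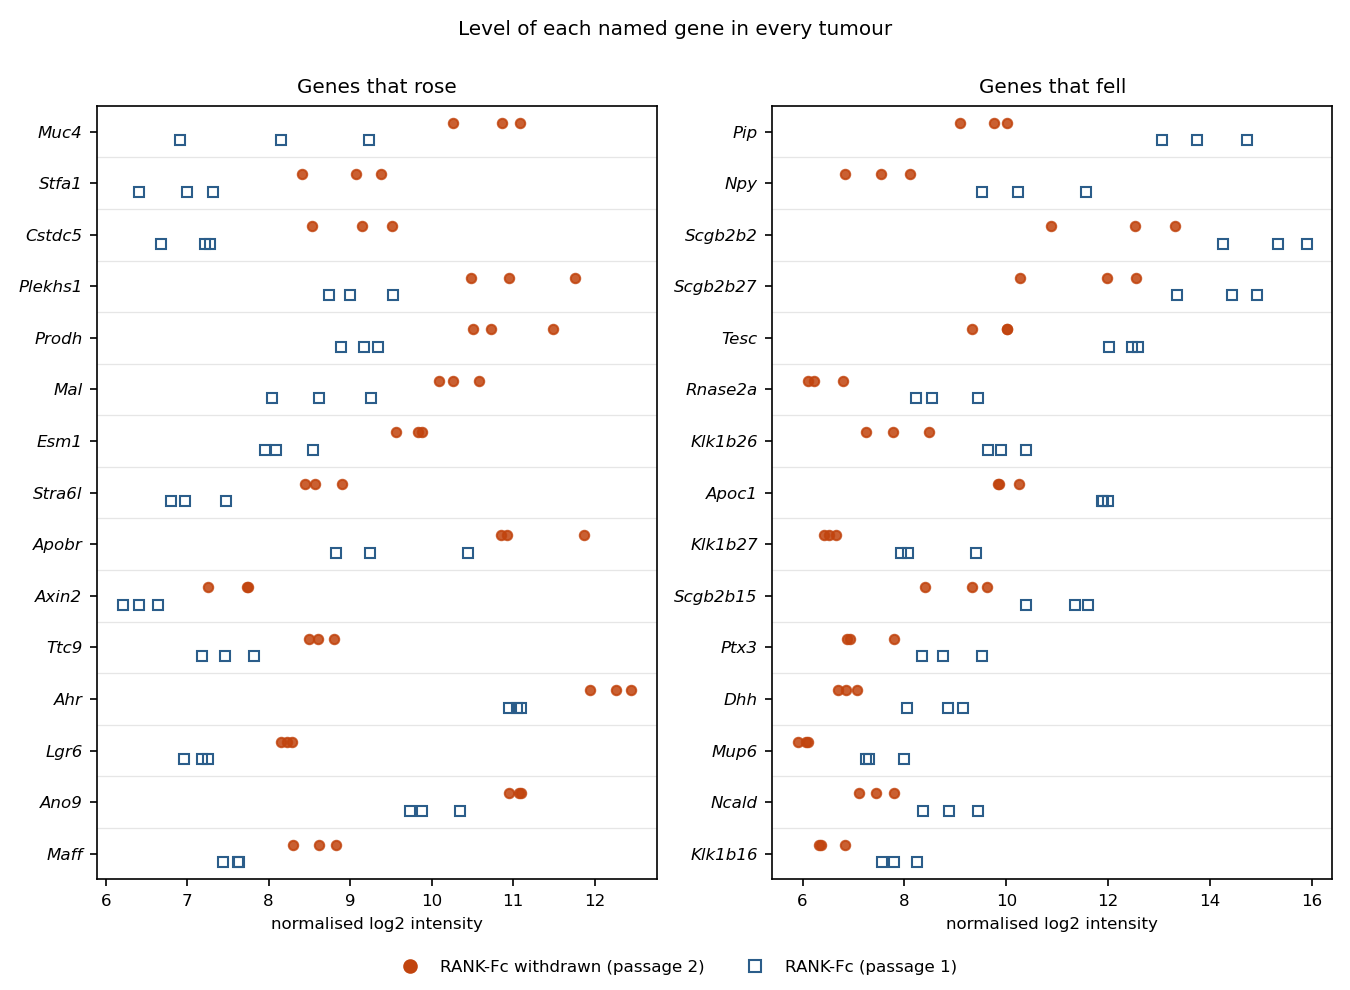
Normalised log2 intensity (x axis) of the 15 genes with the largest rise and the 15 with the largest fall among those that passed, 1 gene per row. Filled circles are the 3 tumours with RANK-Fc withdrawn and open squares the 3 passage 1 RANK-Fc tumours; in every row the 2 sets of points do not overlap, with Pip between 9.10 and 10.01 in withdrawn tumours and between 13.06 and 14.73 in passage 1 RANK-Fc tumours.

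Several other genes fell, with differing spread between tumours. Tesc, tescalcin, a calcium-binding regulator of the sodium-proton exchanger, was at 9.33, 10.02 and 10.01 in withdrawn tumours, against 12.02, 12.47 and 12.59 in passage 1 RANK-Fc tumours. Its difference of -2.42 ± 0.20 had the smallest adjusted p of the comparison, 0.000448 in limma, and it passed in all 6 fits without 1 tumour. Apoc1, an apolipoprotein, was at 10.25, 9.85 and 9.85 in withdrawn tumours, against 11.89, 12.01 and 11.90 in passage 1 RANK-Fc tumours. Both groups were tight and lay well apart. Npy, the neuropeptide Y precursor, spread more: 8.10, 6.83 and 7.55 in withdrawn tumours, against 10.24, 9.53 and 11.56 in passage 1 RANK-Fc tumours. Its difference was -2.73 ± 0.53 with an adjusted p of 0.048 in limma, and it passed in none of the fits without 1 tumour. Dhh, the hedgehog ligand desert hedgehog, Ptx3, a soluble pattern recognition molecule, and Ncald, a neuronal calcium sensor, fell by 1.64, 1.68 and 1.40 on the log2 scale.

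Regulators and signalling genes were also among those that fell. Tbx3, a T-box transcription factor needed for mammary gland development, was at 7.46, 6.68 and 7.05 in withdrawn tumours, against 8.34, 8.36 and 8.42 in passage 1 RANK-Fc tumours (-1.33 ± 0.20, adjusted p = 0.0174 in limma). Foxa1, the pioneer factor of hormone-sensing luminal cells, was at 5.97, 6.56 and 6.19 in withdrawn tumours, against 8.28, 7.07 and 7.43 in passage 1 RANK-Fc tumours, and just missed the threshold (-1.40 ± 0.28, adjusted p = 0.0529). Cited1, a transcriptional cofactor of oestrogen-responsive mammary cells, differed by -1.21 ± 0.27 (adjusted p = 0.0799). None of the 13 tested hormone-sensing markers passed, 2 had an unadjusted p under 0.05, both lower, and the median was -0.25. Esr1 and Pgr, the oestrogen and progesterone receptors, differed by -0.28 and -0.17. Jak1, a kinase of cytokine receptors, fell by 0.97 on the log2 scale, and Creb3l4, a transcription factor anchored in the endoplasmic reticulum, by 1.10. Derl3, a protein of endoplasmic reticulum degradation, fell by 0.79. The list of unfolded protein response and secretion genes had no member that passed. At an unadjusted p under 0.05 lay 6 lower members, against 6.41% lower of all genes. This list had 19 of 24 negative differences and a median of -0.14. Its members with the smallest p were Herpud1 (-0.73) and Serp1 (-0.34). Jak1, Tbx3, Creb3l4 and Derl3 were singled out after their values were seen.

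Of 4 tested genes of the eosinophil-associated ribonuclease family, 2 fell, Rnase2a and Ear10. Of all genes tested, 0.29% passed lower and 6.41% were lower at an unadjusted p under 0.05. Rnase2a was at 6.8, 6.23 and 6.10 in withdrawn tumours, against 9.45, 8.22 and 8.55 in passage 1 RANK-Fc tumours (-2.41 ± 0.32, adjusted p = 0.0113 in limma). It was well above background in 1 of 3 withdrawn tumours. Ear10 fell by 0.97 on the log2 scale and was also well above background in 1 of 3 withdrawn tumours. Ear2 (-2.05, adjusted p = 0.0706 in limma) did not pass. Ear1 did not pass either (adjusted p = 0.0664) and was not well above background in any withdrawn tumour. The eosinophil granule proteins Epx and Prg2 and the surface receptor Siglecf were not well above background in any of the 16 tumours. C5ar2, a receptor for complement fragments, fell by 1.13 on the log2 scale. The macrophage markers Csf1r, Adgre1 and Cd68 overlapped between the groups, with differences of -0.42, -0.35 and -0.13, and none of 18 tested macrophage and dendritic markers passed, 2 being lower at an unadjusted p under 0.05.

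Muc4, a large membrane mucin that can bind ErbB2, rose most. It was at 10.26, 10.86 and 11.08 in withdrawn tumours, against 9.23, 6.91 and 8.15 in passage 1 RANK-Fc tumours. The withdrawn tumours lay close together and the passage 1 RANK-Fc tumours spread over more than 2 units. The difference was 2.43 ± 0.37, a 5.39-fold higher level, with an adjusted p of 0.0174 in limma. Its dimmer second probe gave 0.62 and was not well above background in passage 1 RANK-Fc tumours. No other member of the mucin and glycosylation list passed, of 17 tested, and the median was 0.02. Galnt12 (-1.15, adjusted p = 0.127) and Galnt9 (1.72, adjusted p = 0.15), which start O-glycan chains, are values of that list.

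The stefins Stfa1 and Cstdc5, intracellular inhibitors of cysteine proteases found in myeloid and squamous cells, rose together. Stfa1 was at 8.41, 9.07 and 9.37 in withdrawn tumours, against 7.32, 6.41 and 7.0 in passage 1 RANK-Fc tumours. Cstdc5 was at 8.53, 9.15 and 9.51 in withdrawn tumours, against 7.28, 6.68 and 7.21 in passage 1 RANK-Fc tumours. Withdrawn replicate 3 was the highest of its group in both and replicate 1 the lowest, and their sequences are close enough that one probe may read both. Stfa2 differed by -0.45 and Stfa3 by 0.94, neither passing. S100a8, a neutrophil protein that epithelial cells also make, was at 12.50, 14.03 and 13.05 in withdrawn tumours, against 11.71, 10.28 and 11.32 in passage 1 RANK-Fc tumours (2.16 ± 0.53, adjusted p = 0.114 in limma). Its partner S100a9 differed by 0.01. Of the neutrophil list, 9 of 16 members were tested and Stfa1 alone passed. The median was 0.01, with 5 positive and 4 negative differences. At an unadjusted p under 0.05 lay 3 higher and 1 lower members, against 4.31% and 6.41% of all genes. Of 12 tested squamous and keratin genes, 11 had positive differences and none passed, with a median of 0.60. At an unadjusted p under 0.05 lay 3 of these genes, all higher, against 4.31% higher of all genes. Krt15 (1.10) and Krt16 (1.30) had the smallest p. The part of neutrophils and squamous cells in the stefin difference was not tested.

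Of the Wnt list, 27 of 30 members were tested, 2 passed higher and none lower, against 0.17% and 0.29% of all genes. The median was 0.12, against -0.01 over all genes, with 17 positive and 10 negative differences. At an unadjusted p under 0.05 lay 7 higher and 2 lower members, against 4.31% and 6.41% of all genes. Separated upwards were 11 members and downwards 2, against 8.08% and 10% of all genes. Axin2, the feedback inhibitor and standard target of Wnt signalling, was at 7.26, 7.74 and 7.75 in withdrawn tumours, against 6.64, 6.21 and 6.41 in passage 1 RANK-Fc tumours. Its probe was not well above background in any passage 1 RANK-Fc tumour, so the rise was at least 2.23-fold, with an adjusted p of 0.027 in limma; a second, dimmer probe gave 0.39. Lgr6, a receptor for R-spondins that marks epithelial progenitors, was at 8.22, 8.16 and 8.28 in withdrawn tumours, against 7.18, 7.26 and 6.96 in passage 1 RANK-Fc tumours (1.12 ± 0.21, adjusted p = 0.0407). The effector Tcf7 (0.99, adjusted p = 0.0598) and the feedback inhibitors Nkd1 (1.55, adjusted p = 0.104) and Znrf3 (0.79, adjusted p = 0.165) were separated as well but did not pass. The receptors Fzd1 (-0.48) and Lrp6 (-0.38) had negative differences. Axin2 and Lgr6 passed in none of the 6 fits without 1 tumour, while keeping their sign. Values for Tcf7, Nkd1, Znrf3, Fzd1 and Lrp6 were picked after they were seen.

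Hypoxia and glycolysis genes, targets of the hypoxia-inducible factors, lay higher without any of them passing. Of 24 tested, 21 had positive differences, 11 of them and 1 negative one at an unadjusted p under 0.05, and 16 were separated upwards, with a median of 0.48. Over all genes, 4.31% lay higher and 6.41% lower at an unadjusted p under 0.05, 8.08% were separated upwards, and the median was -0.01. Ndrg1, a stress-induced protein, was at 13.03, 13.36 and 13.36 in withdrawn tumours, against 11.72, 11.58 and 12.06 in passage 1 RANK-Fc tumours. Its difference was 1.43 ± 0.29, with an adjusted p of 0.0594 in limma. Pdk1, a pyruvate dehydrogenase kinase, differed by 0.66 ± 0.13 (adjusted p = 0.059 in limma). The secreted factors Adm (1.74, adjusted p = 0.103) and Vegfa (1.15, adjusted p = 0.226), picked after they were seen, did not pass. Car12 was the exception that lay lower at an unadjusted p under 0.05 (-0.63). Esm1, endocan, a secreted proteoglycan of endothelial cells, rose by 1.5 on the log2 scale, at 9.84, 9.57 and 9.88 in withdrawn tumours, against 8.09, 8.55 and 7.96 in passage 1 RANK-Fc tumours. Angpt2, a Tie2 ligand singled out after its value was seen, rose by 0.89. The endothelial markers Pecam1, Cdh5 and Kdr overlapped between the groups, with differences of 0.05, -0.12 and -0.16.

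**Figure D2:**
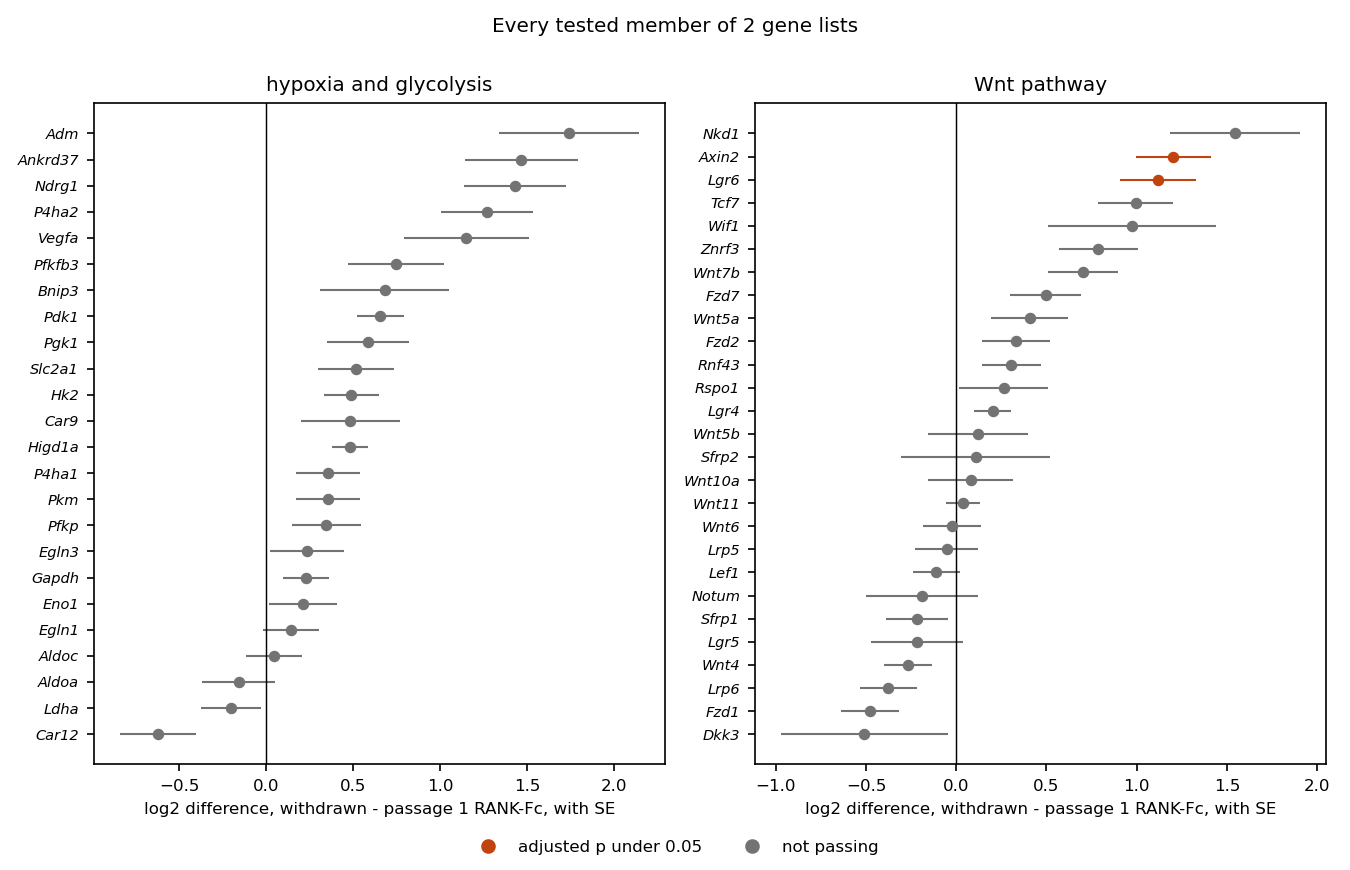
Log2 difference of withdrawn minus passage 1 RANK-Fc tumours, with its SE (x axis), for every tested member of the hypoxia and glycolysis list (left) and of the Wnt list (right), ordered by size. Coloured points passed at an adjusted p under 0.05: Axin2 and Lgr6 on the right and none on the left, where 21 of 24 points lie above 0.

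The remaining genes that rose span metabolism, transcription and transport. Ahr, the aryl hydrocarbon receptor, was at 11.95, 12.45 and 12.27 in withdrawn tumours, against 11.05, 10.95 and 11.09 in passage 1 RANK-Fc tumours (1.13 ± 0.17, adjusted p = 0.0174 in limma). Its second probe gave 0.70. Prodh, which starts the breakdown of proline, was at 10.51, 10.73 and 11.49 in withdrawn tumours, against 9.34, 8.89 and 9.17 in passage 1 RANK-Fc tumours, a 3.55-fold difference. Mal, a membrane protein of apical sorting in epithelia, rose by 1.69 on the log2 scale. Stra6l, a receptor for retinol-binding protein, and Apobr, the apolipoprotein B receptor, rose by 1.49 and 1.44. Plekhs1 rose by 1.92, Ttc9 by 1.13 and Ano9, of the anoctamin family of channels and scramblases, by 1.03. Maff, a small Maf transcription factor, rose by 1.00. Abcc1, an export pump for drugs and glutathione conjugates that was singled out after its value was seen, rose by 0.60. None of 28 tested proliferation genes passed, 1 higher and 1 lower at an unadjusted p under 0.05, and Mki67 differed by -0.37 (adjusted p = 0.349).

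RANK itself did not pass. Tnfrsf11a was at 11.98, 11.90 and 12.18 in withdrawn tumours, against 11.86, 11.61 and 12.00 in passage 1 RANK-Fc tumours, and the groups overlapped (0.18 ± 0.18, adjusted p = 0.794 in limma). Tnfrsf11b, osteoprotegerin, was at 8.01, 8.08 and 7.78 in withdrawn tumours, against 7.46, 7.61 and 7.26 in passage 1 RANK-Fc tumours (0.39 ± 0.36, adjusted p = 0.77). The probe of Tnfsf11, RANK ligand, was too dim to be tested. None of 18 tested members of the RANK list passed, with a median of -0.15. At an unadjusted p under 0.05 lay 2 members, both lower, against 6.41% lower of all genes. Traf1 (-0.78) and Traf3 (-0.26), adaptor proteins of this receptor family, had the smallest p. None of 29 tested milk protein genes passed, 3 higher and 3 lower at an unadjusted p under 0.05, with a median of -0.12. The water channel Aqp5 differed by -0.78 (adjusted p = 0.09) and transferrin, Trf, by -0.78 (adjusted p = 0.385).

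Whether the change differed from that of tumours never given RANK-Fc was tested against the passage 2 and passage 1 control tumours, which share no tumour but 2 arrays with the comparison. Passage 2 against passage 1 controls gave 473 genes (3.35%). All 65 genes that passed after withdrawal had the same sign in the controls, as did 69.7% of all genes, and 57 of the 65 passed there too. The control difference was the larger in size for 46 of the 65 genes. Pip differed by -3.94 with withdrawal and -4.88 in the controls, Tesc by -2.42 and -3.38, Scgb2b2 by -2.70 and -4.71, and Muc4 by 2.43 and 3.84. Across 14131 genes the differences correlated at a Pearson r of 0.706, a description over genes that share arrays and are not independent.

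The difference between the passage changes, taken gene by gene, passed for 0 genes in limma, with the smallest adjusted p at 0.692, and 653 genes (4.62%) had an unadjusted p under 0.05. Rnase2a fell by 2.41 with withdrawal and differed by -0.77 in the controls, a difference between the changes of -1.64 that did not pass. For Muc4 the change with withdrawal minus that in the controls was -1.41 ± 0.56 and did not pass either (adjusted p = 0.993). The genes with the smallest p were Fam169b (1.10), Chrm1, the muscarinic receptor (0.99), and Hmgn3, a nucleosome-binding protein (1.29), each higher after withdrawal relative to the controls. Lower ones were Akap12, a kinase anchor (-0.81), and Cables1 (-1.04). These 5 differences carry standard errors of 0.18 to 0.26, and that of Rnase2a one of 0.49.

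**Figure D3:**
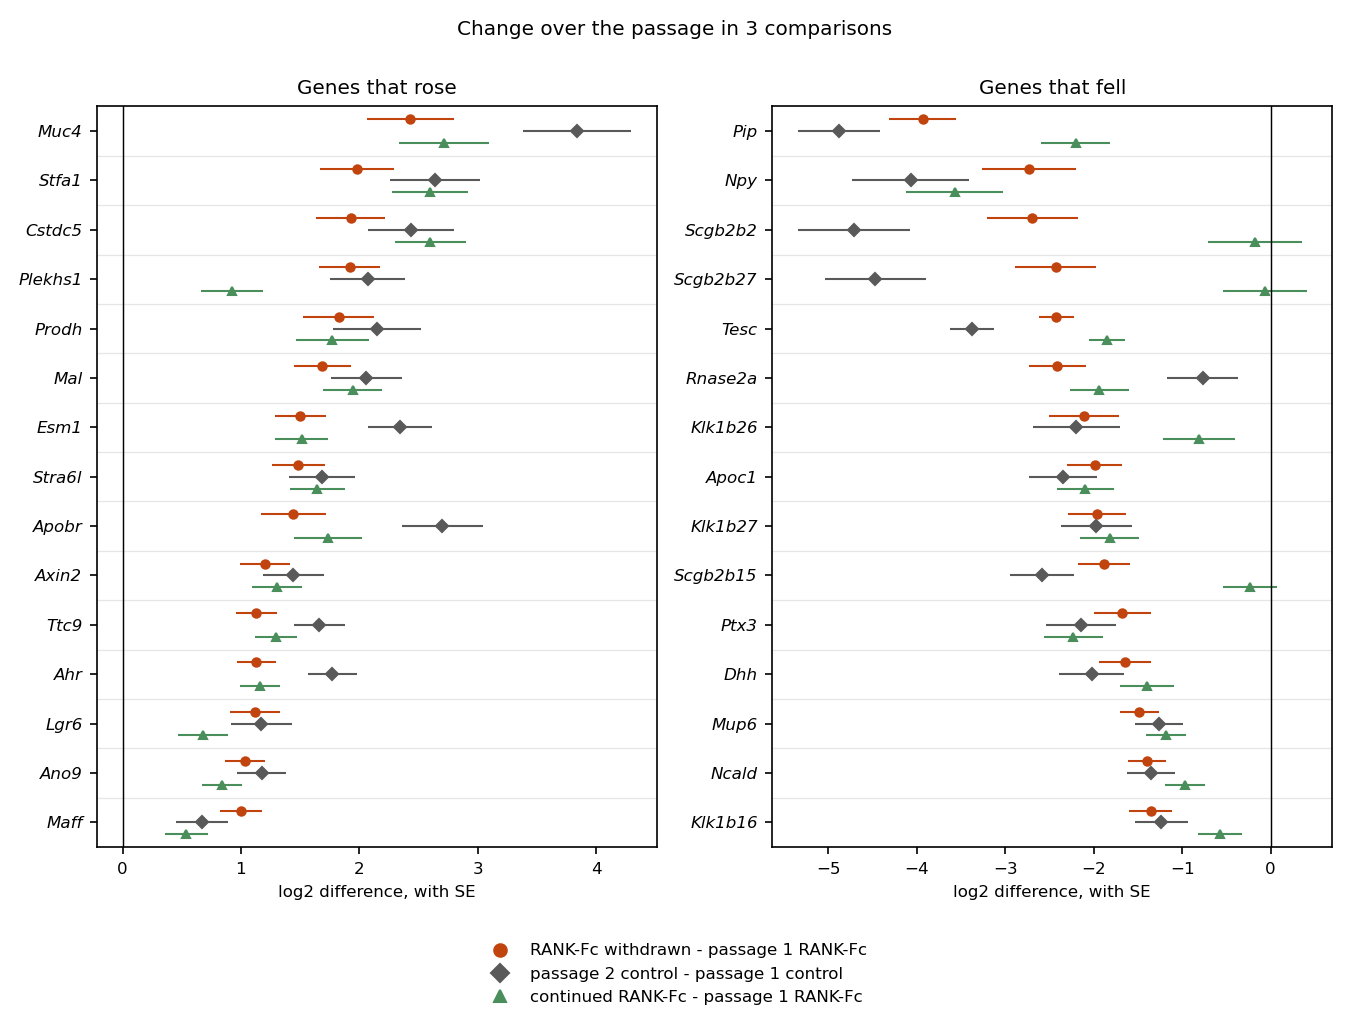
Log2 difference with its SE (x axis) over the passage for the 30 genes with the largest changes, in tumours with RANK-Fc withdrawn (circles), in untreated controls (diamonds) and in tumours with RANK-Fc continued (triangles). Circles and triangles share the passage 1 RANK-Fc tumours; all points of a gene lie on one side of 0, and the Scgb2b triangles lie nearest to 0, at -0.24 to -0.07.

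Continued RANK-Fc was the other course a treated tumour could take. Continued against passage 1 RANK-Fc tumours gave 374 genes (2.65%), and it shares the passage 1 tumours with the withdrawn comparison. Values with RANK-Fc continued lay near 0 for the secretoglobins. Scgb2b27 differed by -2.43 with withdrawal and by -0.07 with RANK-Fc continued, Scgb2b2 by -2.70 and -0.18, and Scgb2b15 by -1.89 and -0.24. Pip differed by -3.94 with withdrawal and -2.20 with RANK-Fc continued, and Klk1b11 by -1.31 and -0.27. Klk1b27 differed by -1.96 with withdrawal and -1.82 with RANK-Fc continued. Plekhs1 rose by 1.92 with withdrawal and differed by 0.92 with RANK-Fc continued. A smaller change with RANK-Fc continued did not hold for all genes that passed. Muc4 rose by 2.43 with withdrawal and by 2.71 with RANK-Fc continued, and Stfa1 by 1.98 and 2.60. Npy differed by -2.73 with withdrawal and -3.57 with RANK-Fc continued, Ptx3 by -1.68 and -2.23, and Apoc1 by -1.99 and -2.09.

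The direct test of withdrawn against continued tumours, both in passage 2, passed for 0 genes in limma, with a smallest adjusted p of 0.154 and 1452 genes (10.3%) at an unadjusted p under 0.05. Without continued replicate 2, 38 genes passed. For Scgb2b2 withdrawn minus continued was -2.52 ± 0.50, for Scgb2b27 -2.36 ± 0.45 and for Scgb2b15 -1.65 ± 0.29, each with an adjusted p of 0.154. Asns, asparagine synthetase, and Cyp51, an enzyme of cholesterol synthesis, were the other genes with the smallest p on the lower side, Cyp51 at -0.54. On the higher side were Ramp1, a partner of the calcitonin-like receptor (0.96), Sh3bp1 (0.81), the chemokine Cx3cl1 (0.81), the survival gene Bcl2 (0.71) and the receptor Notch2 (0.70). None of these passed.

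**Figure D4:**
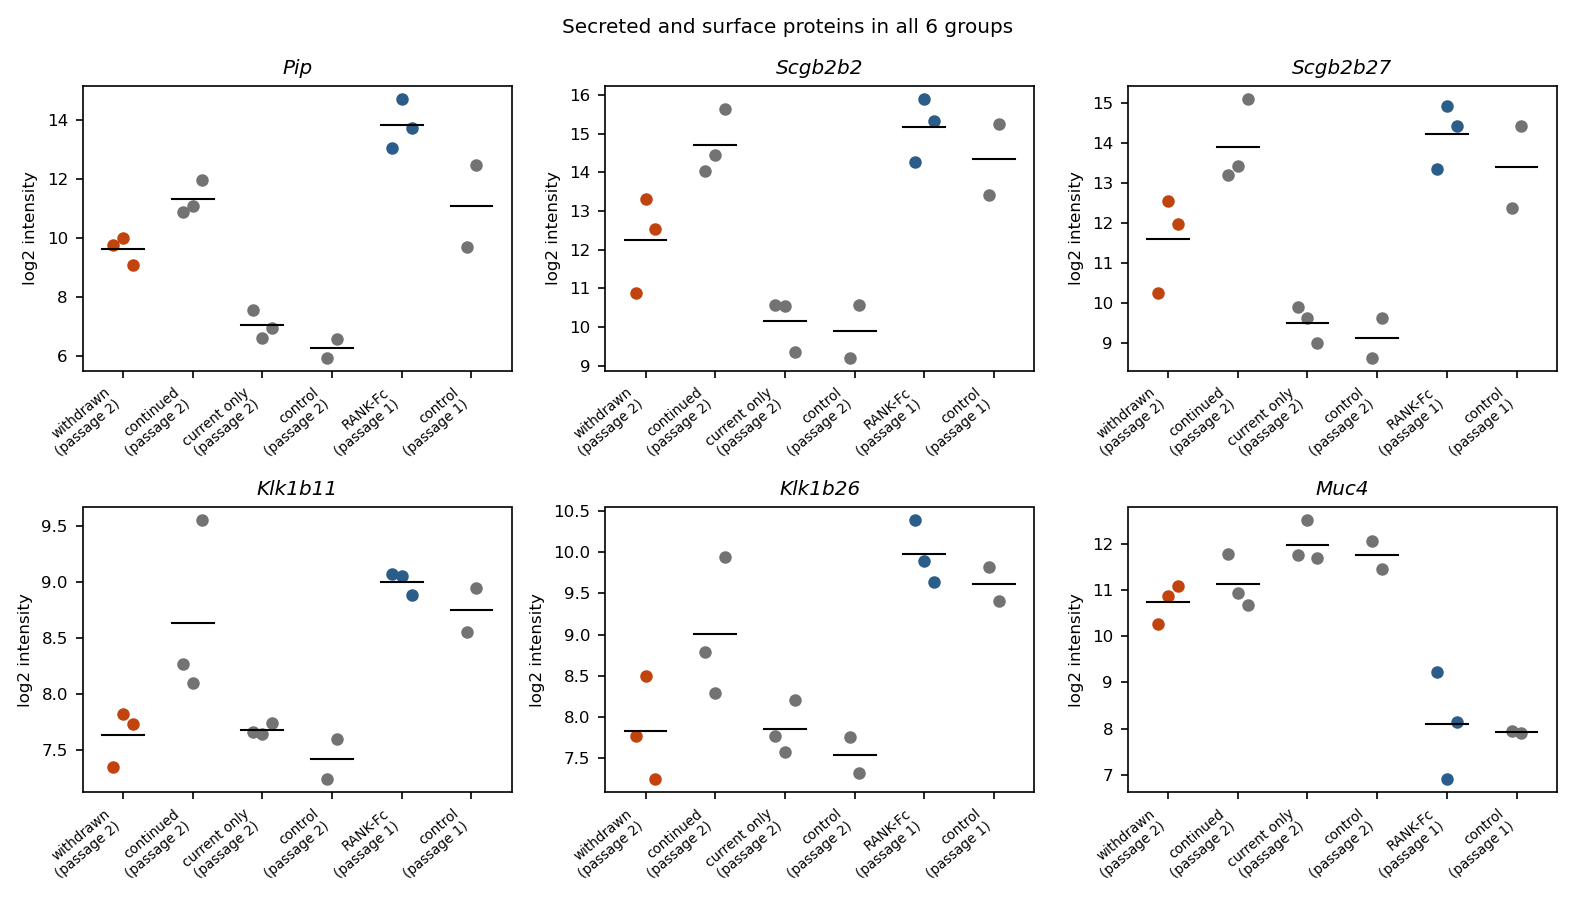
Normalised log2 intensity (y axis) of 6 genes in every tumour of the 6 groups, with the group mean as a bar. Scgb2b2 lies between 10.88 and 13.32 in withdrawn tumours and between 14.26 and 15.90 in passage 1 RANK-Fc tumours; the passage 2 control tumours lie lower than the withdrawn ones for Pip, Scgb2b2 and Scgb2b27, and Muc4 is higher in each passage 2 group than in either passage 1 group.

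Markers of other cell types moved between tumours. Adipocyte markers averaged 8.40, 8.70 and 9.28 in withdrawn tumours, against 10.27, 8.98 and 9.09 in passage 1 RANK-Fc tumours, where replicate 1 was the high one. None of 16 tested adipocyte genes passed, 14 had negative differences and the median was -0.91. At an unadjusted p under 0.05 lay 10 of these genes, all lower, against 6.41% lower of all genes. Cidec, a lipid droplet protein, differed by -1.72, and Pparg, the adipocyte transcription factor, by -0.80, and Lep was not well above background in any of these 6 tumours. Skeletal muscle markers averaged 9.42, 7.24 and 7.08 in withdrawn tumours, against 7.19, 7.61 and 7.17 in passage 1 RANK-Fc tumours, with withdrawn replicate 1 the high one. Fibroblast markers had negative differences for 19 of 20 genes, none passing and none with an unadjusted p under 0.05, with a median of -0.42. Their list mean was 10.95, 9.78 and 10.38 in withdrawn tumours, against 10.87, 10.88 and 10.51 in passage 1 RANK-Fc tumours. The part of these cells in the results was not tested. Cxcl12, a chemokine of stromal cells, differed by -1.07 (adjusted p = 0.0751 in limma). None of 25 tested chemokine ligands passed, 6 being lower at an unadjusted p under 0.05, against 6.41% of all genes.

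**Figure D5:**
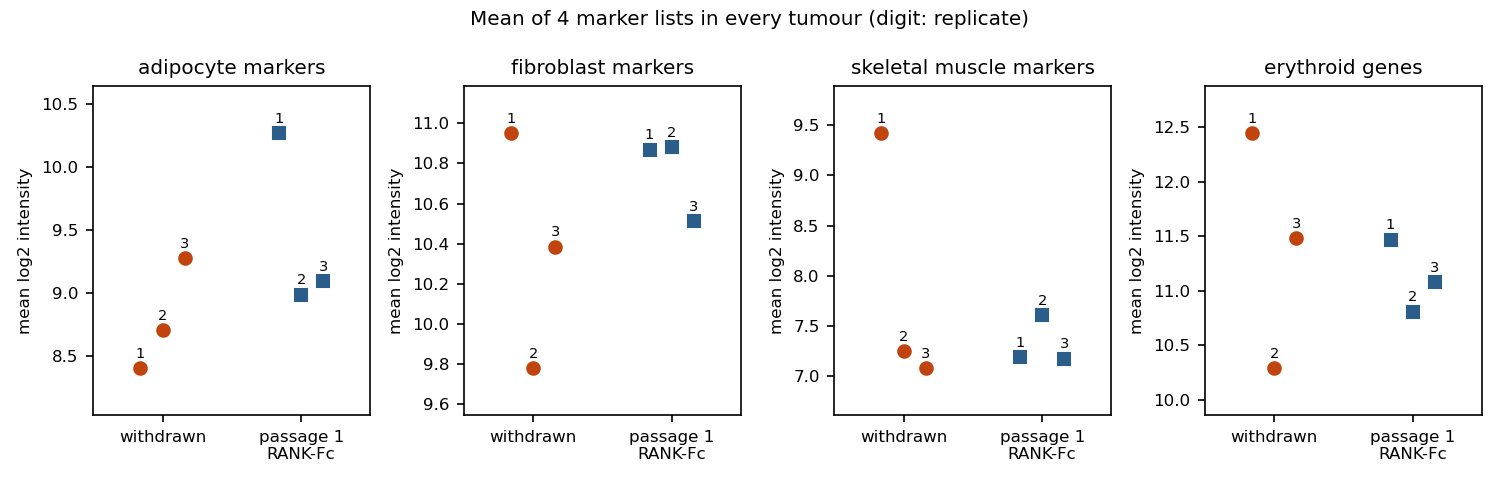
Mean log2 intensity (y axis) of 4 marker lists in the 3 withdrawn tumours (circles) and the 3 passage 1 RANK-Fc tumours (squares), with the replicate number beside each point. Withdrawn replicate 1 is highest in muscle markers at 9.42 and in erythroid genes at 12.45, and passage 1 RANK-Fc replicate 1 is highest in adipocyte markers at 10.27.

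On the array that held withdrawn replicate 1 and passage 1 RANK-Fc replicate 2 together, all 65 genes had the sign of the fit; both tumours also entered the fit, so this is the same data read within 1 array. For 12 of the genes that passed, more than 1 probe passed the filter, and the sign was the same for all probes of each of the 12.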

How the data were processed

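The 16 tumour RNAs on 8 arrays were read by the submitters with Feature Extraction (Agilent, 10.7.3.1), as the file headers and processing notes say; all arrays lay on 1 slide with 1 scan time. The deposited array files give the median spot intensity and local background intensity of both colours on a linear scale and, per the file headers, with no scaling across arrays. Also deposited are processed intensities, corrected by Feature Extraction for background and dye, the log10 ratio of red over green, and other quality marks coded 0 or 1, per the file headers. A deposited table of normalised values has 8 columns that match no label and was not used.

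Intensities were corrected with normexp (offset 50), loess and Aquantile, and taken as log2; the deposited log10 ratios served to check the direction. Spots marked uneven or outlying were set missing, 28 gene values in all; Plpp3 lacks withdrawn replicate 3. Probes were named through RefSeq transcripts (GRCm38.p6, names and promoters; the array design is older): 28026 of 55681 had a symbol. A probe was kept where all tumours of any 1 of the 6 groups were well above background, and the brightest stood for its gene. limma 3.58.1 in R 4.3.3 fitted 6 groups and dye, with the 2 channels of an array correlated at 0.241, limma's estimate of 0.415 corrected for a bias seen on simulated data; the residual degrees of freedom were 9. The number of arrays limits precision. Named genes were the 15 largest changes in each direction among genes that passed, up to 4 members of each list that passed or else the 2 with the smallest p, the 5 with the smallest p in each direction of the difference tests, and the RANK genes. Members, lists and families were chosen with earlier results of these data known.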

Additional observations from a re-analysis of the deposited data

How the results depend on the processing

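All 65 genes kept their sign in the 6 fits that left out 1 tumour and in the 12 or 13 other settings that gave each of them a value. The count of 65 became 124 with the uncorrected correlation of channels, 43 with a correlation of 0 and 23 when the groups compared were fitted alone, and lay between 4 and 60 without 1 tumour: 21, 4 and 60 without withdrawn replicate 1, 2 and 3, and 28, 14 and 26 without passage 1 RANK-Fc replicate 1, 2 and 3. In those 6 fits 3 genes passed throughout (Pip, Tesc and Zfp979) and 15 in none. Zfp979 was at 6.26, 6.39 and 6.40 in withdrawn tumours, well above background in 1 of 3. It was at 7.46, 7.34 and 7.28 in passage 1 RANK-Fc tumours. Of the 23 genes that passed when the groups compared were fitted alone, 12 were among the 65. Across the 12 or 13 other settings, 8 of the 65 passed throughout. The share of genes that rose, 36.9%, was 53.8% with Feature Extraction's processed signals and 48.9% with a filter on all channels, and from 0% (0 higher, 4 lower, without withdrawn replicate 2) to 61.9% (13 higher, 8 lower, without withdrawn replicate 1) without 1 tumour, with 14.3% (2 higher, 12 lower) without passage 1 RANK-Fc replicate 2. The difference from the untreated change passed for 0 to 1 genes without 1 tumour, 1 without passage 2 control replicate 1. Withdrawn against continued passed for 0 to 38, 1 without withdrawn replicate 3 and 38 without continued replicate 2. The untreated count of 473 was 309 without the dye term and 11 to 199 without 1 tumour. The continued count of 374 was 242 with processed signals, 196 with median centring, 588 with the uncorrected correlation, 133 for groups alone, and 63 to 411 without 1 tumour. The causes were not tested. Over 2528 combinations of a named gene and a setting, 17 changed sign, all of them for genes that had not passed. No paired analysis was possible because the labels give animal numbers and no replicate number shared between the groups.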

Other observations

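Members with the smallest p of lists not yet described are given as values, and none of them passed. Bhlhe40, a clock repressor that also responds to hypoxia, differed by 0.93 (adjusted p = 0.0638 in limma), and Myc by 0.76 (adjusted p = 0.0512). Elf3, an epithelial transcription factor, differed by 0.62 (adjusted p = 0.0795) and Bcl11b, a regulator of mammary stem cells, by 0.90 (adjusted p = 0.0795). The Notch ligand Dll1 differed by -0.67 (adjusted p = 0.0751) and the integrin Itgb3, a luminal progenitor marker, by -1.18 (adjusted p = 0.104). The interferon response list lay lower in 23 of 28 genes, with a median of -0.27 and no member with an unadjusted p under 0.05. Oxidative phosphorylation, with 26 genes tested, had a median of -0.01.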
